A study of Mus musculus with 12 samples.

Results

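Of 100354 open chromatin regions mapped in 6 populations of mouse myeloid cells, 15156 were open in every population and lay away from the ends of protein-coding genes. The assay was ATAC-seq, which tags accessible DNA with adapters carried by a transposase. Peaks of the 6 deposited lists that overlapped by at least 1 bp were merged into regions. A region was kept when it held a peak of all 6 lists and its centre lay more than 1 kb from both ends of every protein-coding gene; these are called shared distal regions. The remaining 10285 of the 25441 regions held by all 6 lists lay within 1 kb of a gene end and are called shared gene-end regions. The regions were chosen by presence of a called peak in each list and by distance to genes, so their tag counts are descriptions, with no test.

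All cells came from C57BL/6J mice, and each list belonged to 2 libraries of a group, 12 libraries in all. On a diet that models nonalcoholic steatohepatitis (NASH), the liver gave F4/80-high Tim4-positive Kupffer cells (KC-N), F4/80-high Tim4-negative Kupffer cells (KN-RM), CD11b-high Ly6C-high recruited macrophages (Ly6CHi-RM) and CD11b-high Ly6C-low recruited macrophages (Ly6CLo-RM). Ly6C-high blood monocytes also came from mice on the NASH diet (Blood-Ly6CHi-NASH). F4/80-high Tim4-positive Kupffer cells of mice on a control diet (KC-H) were the only cells of that diet. Livers were perfused and digested in the presence of flavopiridol, an inhibitor of transcription, before cells were sorted. The labels give neither ages nor the duration of the diet, nor whether the 2 libraries of a group came from separate animals. With 1 list for both libraries of a group there is no value per library, so no difference between groups could be tested; 95% intervals of shares are Wilson intervals that cover counting error only.

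Kupffer cells are the resident macrophages of the liver, and blood monocytes replace them when they are lost. Macrophages open their enhancers through lineage factors such as PU.1, the product of Spi1, acting together with C/EBP, AP-1 and other partners. Chromatin that is open in every cell of a lineage is known to include enhancers of genes that all of these cells use, sites of the insulator protein CTCF, and promoters. Promoters outside the annotated ends of genes can belong to alternative transcripts or to RNA genes that code for no protein.

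Sequence could be read where a region overlapped the window from 250 bases before to 50 bases after an annotated transcript start (RefSeq, GRCm38.p6). The runs shown are the bases before such a start that lie within a shared distal region, 5′ to 3′ on the strand of the transcript. Capitals mark matches, on either strand, to the letters GGGCGGG (SP and KLF factors), CCGGAAG (ETS factors), TGANTCA (AP-1) and TGTGGTT (RUNX). The starts at Edem1, 1700096K18Rik and Snhg8 lie in regions with high tag counts in all 6 lists. The start at Ttll9 lies in a region that ranked higher in the F4/80-high lists, that of Gm30657 in a region that ranked higher in the CD11b-high and blood lists, that of Gm51489 in a region that ranked higher in KC-N than in KC-H, and that of Ccdc85c in a region that ranked lower in KC-N than in KC-H.
Edem1: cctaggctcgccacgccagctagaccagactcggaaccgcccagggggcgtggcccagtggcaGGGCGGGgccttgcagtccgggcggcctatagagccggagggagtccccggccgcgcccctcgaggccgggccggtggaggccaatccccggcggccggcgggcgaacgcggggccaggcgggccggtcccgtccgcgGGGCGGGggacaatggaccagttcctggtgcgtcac
1700096K18Rik: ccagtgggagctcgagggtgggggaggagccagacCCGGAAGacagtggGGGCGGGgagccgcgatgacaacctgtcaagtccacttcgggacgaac
Snhg8: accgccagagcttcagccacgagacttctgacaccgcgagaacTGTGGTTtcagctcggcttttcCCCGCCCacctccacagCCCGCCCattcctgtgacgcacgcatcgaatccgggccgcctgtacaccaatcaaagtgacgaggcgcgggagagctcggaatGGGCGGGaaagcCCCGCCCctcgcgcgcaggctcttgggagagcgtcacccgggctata
Ttll9: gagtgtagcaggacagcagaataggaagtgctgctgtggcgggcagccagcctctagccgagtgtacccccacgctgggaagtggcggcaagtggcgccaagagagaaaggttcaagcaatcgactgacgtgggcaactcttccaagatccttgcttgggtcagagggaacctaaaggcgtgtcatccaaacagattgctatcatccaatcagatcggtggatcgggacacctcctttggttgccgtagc
Gm30657: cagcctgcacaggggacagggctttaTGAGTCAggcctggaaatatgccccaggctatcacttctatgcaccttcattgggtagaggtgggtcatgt
Gm51489: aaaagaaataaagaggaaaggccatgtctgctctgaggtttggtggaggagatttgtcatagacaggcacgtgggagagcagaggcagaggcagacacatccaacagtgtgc
Ccdc85c: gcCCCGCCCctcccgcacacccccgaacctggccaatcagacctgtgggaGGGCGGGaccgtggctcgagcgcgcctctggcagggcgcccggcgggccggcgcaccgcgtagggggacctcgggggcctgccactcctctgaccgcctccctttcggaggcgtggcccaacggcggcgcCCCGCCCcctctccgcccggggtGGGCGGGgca

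The Edem1 run covers chr6:108828391-108828627 on the plus strand, has 77.2% G and C and 29 CpG dinucleotides in 237 bases, and holds 2 SP and KLF matches. For Snhg8, a long noncoding RNA that hosts small nucleolar RNA, the run covers chr3:123508363-123508586 on the minus strand and holds 23 CpG dinucleotides, 4 SP and KLF matches and 1 RUNX match. The run of the long noncoding RNA 1700096K18Rik, at chr5:25529768-25529864 on the plus strand, has 1 match each of the ETS and the SP and KLF letters in 97 bases. By contrast, the Gm30657 run at chr5:118413582-118413678 on the minus strand has no CpG and 1 AP-1 match, and the Gm51489 run at chr7:75822426-75822537 on the plus strand has 1 CpG and none of the letters searched. In the Ttll9 run, at chr2:152962235-152962484 on the plus strand, 11 CpG dinucleotides and none of the letters searched were found. The Ccdc85c run at chr12:108275431-108275643 on the minus strand has 26 CpG dinucleotides and 4 SP and KLF matches.

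A few shared distal regions lay at microRNA genes, whose mature sequences show what these loci produce. MicroRNAs pair with target messages mainly through the seed, bases 2 to 8, in capitals. The upper 7 belong to genes that are among those whose regions had the highest lowest rank over the 6 lists; miR-142a, miR-132, miR-212 and let-7i were chosen after their values were seen.
miR-5620-5p: aCGAGGCAggggcuuugacugug
miR-7671-3p: aAGCGGGCaggcggagaaccac
miR-8104: cAGGAUGAgguggagugcagcg
miR-210-3p: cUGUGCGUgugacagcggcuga
miR-23a-3p: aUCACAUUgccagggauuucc
miR-27a-3p: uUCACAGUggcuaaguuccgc
miR-24-3p: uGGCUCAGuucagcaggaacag
miR-142a-3p: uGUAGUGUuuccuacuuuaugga
miR-142a-5p: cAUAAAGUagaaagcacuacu
miR-132-3p: uAACAGUCuacagccauggucg
miR-212-3p: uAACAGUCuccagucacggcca
let-7i-5p: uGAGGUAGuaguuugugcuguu

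Distal regions were a smaller part of what all lists shared than of what single lists held. They made up 59.6% (59 to 60.2%) of the 25441 regions held by all 6 lists. Among regions held by 1, 2, 3, 4 and 5 lists, the distal share was 85.7%, 86%, 86.8%, 81.5% and 77.6%. The shared distal regions held 44.3% of the peaks of KN-RM, the shortest list with 34293 peaks, against 21.9% of the peaks of Blood-Ly6CHi-NASH, the longest with 69616. They held 30.1% of the peaks of KC-N, 24.7% of Ly6CHi-RM, 27.8% of Ly6CLo-RM and 23.9% of KC-H. Of the distal regions held by the other 5 lists, KN-RM held 77.9%, while for each of the other lists this share lay between 94 and 99.2%. With every list shortened to its 34293 best-scored peaks, the number of shared distal regions was 9704.

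Within a shared distal region, the peak centres of the 6 lists lay close together. Most peaks were 200 bp wide and had to overlap to form 1 region, so the rule itself limits their spread and number. The median width of a shared distal region was 236 bp, and together they covered 3.75 Mb. In 98.8% of them each list had exactly 1 peak. The 6 peak centres of a region were spread over a median of 36 bp, close to the 35 bp of shared gene-end regions.

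In every list the shared distal regions carried fewer tags than the shared gene-end regions and more than other distal regions. The authors' normalized tag count of the strongest peak had a median of 37.5 against 52.4 at shared gene-end regions in KC-N, 20.4 against 28.8 in KN-RM, and 91.7 against 160 in Ly6CHi-RM. It was 70.4 against 136 in Ly6CLo-RM, 99.9 against 188 in Blood-Ly6CHi-NASH, and 29.8 against 49.8 in KC-H. The ratio of the medians lay between 0.516 in Ly6CLo-RM and 0.716 in KC-N. Set against the distal regions of 1 to 5 lists, the shared distal regions had 1.44 times their median in KN-RM and 3.04 times in Ly6CHi-RM, with the other 4 lists in between. Each list holds called peaks only, so sites too weak to be called are in none of these medians.

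**Figure D1:**
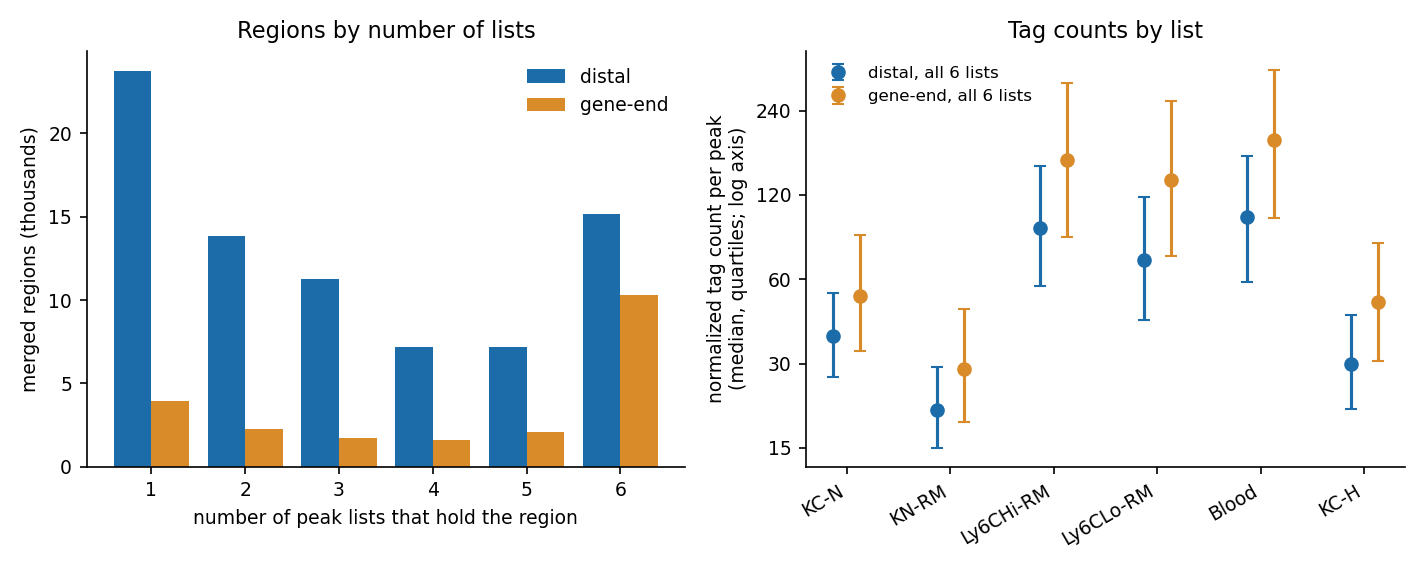
Left, merged regions held by 1 to 6 peak lists, distal beside gene-end; at 6 lists there are 15156 distal and 10285 gene-end regions. Right, normalized tag count of the strongest peak on a log axis, as the median (point) and quartiles (bars) of shared distal regions beside shared gene-end regions in each list; the distal median is the lower in each of the 6 lists.

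Shared distal regions lay nearer to gene ends than distal regions of fewer lists, and a similar share of them lay inside genes. The median distance to the nearest gene end was 12558 bp, against 16994 bp for distal regions of 1 list and 14366 bp for those of 5 lists. Between 1 and 5 kb from a gene end lay 4241 of them (28%), between 5 and 50 kb 8218 (54.2%), and beyond 50 kb 2658 (17.5%). Inside a protein-coding gene lay 8611 (56.8%, interval 56 to 57.6%), against 54.4 to 56.4% of the distal regions of 1 to 5 lists. Without the regions over annotated start windows described below, an alternative chosen after seeing the data, the share was 54.7%. That value falls within the range of the distal regions of fewer lists, from which such regions were not removed. Regions on sequences without start windows were kept in it. The X chromosome held 200 of them (1.32%), compared with 228 of the shared gene-end regions (2.22%) and 1.66 to 2.1% of partly shared distal regions. Exons, introns and untranslated regions could not be told apart with the gene table used.

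Regions on either side of the 1 kb limit had similar tag counts. The nearest regions outside it lay 1001 bp from Ttc32 and Stt3a and 1002 bp from Rftn1; the nearest within it lay 1000 bp from Srsf6 and 999 bp from Ddx5 and Ep300. The 448 shared regions just beyond the limit, in a band of 200 bp, had a median tag count of 37 in KC-N and 105 in Blood-Ly6CHi-NASH, and the 537 in the band of the same width within it had 35.1 and 96.1.

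An annotated transcript start was several times more common in shared distal regions than in other distal regions. Of the 14653 on sequences covered by the start table, 1252 overlapped a start window (8.54%, interval 8.1 to 9.01%). The share was 1.25% for distal regions of 1 list and 3.45% for those of 5 lists, with the others in between. Of these 1252, 915 overlapped a start of a protein-coding gene, and 80.3% of the 1252 lay inside a protein-coding gene, away from its outer ends. The other 337 overlapped only starts of other genes. The remaining 13401 had no annotated start window. Not counted here were the shared distal regions on sequences outside the start table. They match in number the 464 on chromosome 18 and the 39 on unplaced sequences.

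Regions with a start window stood above the rest of the shared distal regions in every list. A rank was given to each region in each list, as the percentile of its tag count among all 25441 shared regions, from 0 to 100 points. The median lowest rank over the 6 lists was 41.3 points with a start window and 14.8 points without one. In Blood-Ly6CHi-NASH the median tag count was 171 with a start window and 95.1 without, and in KC-N 46.6 and 36.5. Of the 170 shared distal regions on these sequences that ranked in the top 10% of all 6 lists, 96 had a start window (56.5%, interval 49 to 63.7%).

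The start windows themselves were rich in CpG and in SP and KLF letters. Windows in shared distal regions (1413) had a median of 60.3% G and C and 19 CpG dinucleotides per 300 bases, and 74.8% had 10 or more. Windows more than 1 kb from gene ends that lay in no region of any list (11350) had 47.7% G and C and 4 CpG, and 11.6% had 10 or more. GGGCGGG was present in 42.4% of the windows in shared distal regions, against 6.99% of those in no region, 54.1% of those in shared gene-end regions and 25.6% of all 32851 windows. CCGGAAG, an ETS sequence, was present in 15%, against 2.3% of those in no region and 8.86% of all. GGGCGGG and CCGGAAG both contain CpG, which differs between these sets of windows as given above; the part of base composition in the shares was not tested.

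Letters of the myeloid factors differed less. GAGGAAG, the core that PU.1 prefers, was in 18.2% of the windows in shared distal regions (interval 16.3 to 20.3%), against 13% in shared gene-end regions and 12.3% in windows of no region. The interval counts each window as independent, although some windows of the same region overlap, so it is too narrow. CCANNAGGG, from the CTCF motif, was in 8%, against 5.95% and 5.66%. TGANTCA (AP-1) was in 7.78%, against 3.8% at shared gene-end regions and 9.64% in windows of no region. TGTGGTT (RUNX) was in 3.75%, against 3.25% and 6.44%. TTGCNNAA (C/EBP), TGCTGAC (part of the MAF site) and AAANNGAAA (IRF) were in 10.6%, 5.52% and 9.62% of the windows in shared distal regions. At shared gene-end regions these shares were 7.25%, 3.25% and 6.51%, and in windows of no region 12.4%, 5.35% and 12.6%. A match is only a run of letters in these windows, and the shared distal regions without an annotated start were not searched, as no genome sequence was used here.

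**Figure D2:**
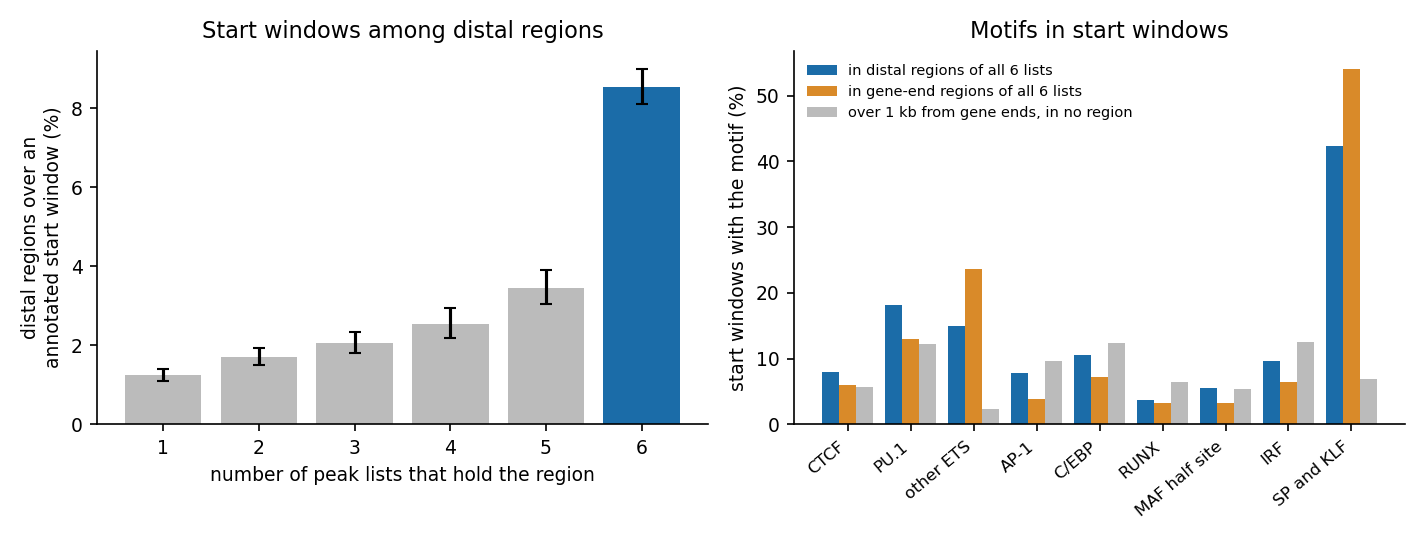
Left, the percentage of distal regions that overlap an annotated start window, by the number of lists that hold them, with bars for 95% Wilson intervals; it is 1.25% at 1 list and 8.54% at 6 lists. Right, the percentage of start windows that hold each motif's letters, for windows in shared distal regions, windows in shared gene-end regions and windows over 1 kb from gene ends in no region; the SP and KLF letters are in 42.4%, 54.1% and 6.99%.

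Some of the sites that ranked high in all lists lay at genes for noncoding RNA. Within 1 kb of an end of a long noncoding RNA gene lay 1132 of the 15156 shared distal regions. The regions at Gm35417 (which shares its region with the Edem1 start), 1700096K18Rik, 1110020A21Rik, D130051D11Rik, 1700003G18Rik and Snhg8 ranked at least 97.8 points in all 6 lists. At Snhg8 the tag count was 257 in KC-N, 122 in KN-RM, 596 in Ly6CHi-RM, 582 in Ly6CLo-RM, 704 in Blood-Ly6CHi-NASH and 194 in KC-H. Dancr, a long noncoding RNA that hosts the small nucleolar RNA Snora26, had 170 tags in KC-N, 73.8 in KN-RM, 481 in Ly6CHi-RM, 500 in Ly6CLo-RM, 700 in Blood-Ly6CHi-NASH and 161 in KC-H; it was chosen after its values were seen.

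Genes for transfer RNA, which RNA polymerase III transcribes, lay at shared distal regions more often than other RNA genes did. Of the 359 transfer RNA genes more than 1 kb from protein-coding gene ends, 77 (21.4%) had a shared distal region centred within 1 kb of one of their ends, and 77 more had only a distal region of fewer lists. The share was 7.65% of 10686 long noncoding RNA genes, 3.62% of 1078 microRNA genes, 2.78% of 971 small nuclear RNA genes, 1.67% of 1258 small nucleolar RNA genes and 1.14% of 9669 pseudogenes. Transfer RNA genes occur in clusters, so these genes shared regions: 74 shared distal regions were involved, 15 of them on chromosome 11 and 10 on chromosome 13. Their tag counts were not unusual, with a median of 34.1 in KC-N and 91 in Blood-Ly6CHi-NASH, against 37.5 and 99.9 for the other shared distal regions. None of the 74 ranked at least 25 points higher in all F4/80-high lists than in the others, beside 1.87% of all shared regions, and 1 did in the reverse direction, beside 1.21%. By the same gap, 1 ranked higher in KC-N than in KC-H, beside 5.62% of all shared regions, and 1 lower, beside 4.42%. The comparison of RNA classes was chosen after the data were seen.

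Few microRNA genes had a shared distal region. Of 1228 microRNA genes, 40 had an end within 1 kb of a shared distal region, and 14 of the 40 were overlapped by it. The higher of 2 regions at Mir5620, chr7:7298374-7298584, ranked at least 94.6 points in all 6 lists, with tag counts of 148 in KC-N, 74.2 in KN-RM, 458 in Ly6CHi-RM, 435 in Ly6CLo-RM, 503 in Blood-Ly6CHi-NASH and 151 in KC-H. Mir7671 lay at chr11:53763585-53763874, a region assigned to Irf1, the interferon regulatory factor, with a lowest rank of 73.5. The cluster of Mir23a, Mir27a and Mir24-2, known in blood cell differentiation, adjoined chr8:84207851-84208063, with a lowest rank of 63.7. The hypoxia-induced Mir210 had a region at chr7:141221753-141221972 with a lowest rank of 66.8.

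Among the microRNA loci chosen after their values were seen, Mir142, a microRNA gene of blood cells, lay beside chr11:87756530-87756789. Its tag count was 51 in KC-N, 36 in KC-H and 26.2 in KN-RM, against 169 in Ly6CHi-RM, 163 in Ly6CLo-RM and 190 in Blood-Ly6CHi-NASH, and its rank lay between 50.7 and 74.5 points in all of them. Mir132 and Mir212, whose 3p products share the seed AACAGUC, were both covered by chr11:75173059-75173802. That region ranked 75.4 points in KN-RM and 35.4 in KC-N, with 53.1 in KC-H and 17 to 28.5 in the other 3 lists. At Mirlet7i the region chr10:122985706-122985977 ranked 91.1 points in Blood-Ly6CHi-NASH and 24.1 to 60.3 in the other 5 lists.

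The genes with the most shared distal regions included several transcription factors. The regions were assigned to the gene that contained them, or to the nearest gene within 100 kb; 783 (5.17%) had none. At least 1 was assigned to 6091 of 21887 protein-coding genes (27.8%), and 10 or more to 99 genes. Bach2, a transcriptional repressor best known in lymphocytes, Zmiz1, a transcriptional coactivator, and Zfp516, a zinc finger protein, had 20 each. Irf2bp2, a corepressor that binds IRF2, had 19 although its gene is only 5.69 kb long. Klf6 and Klf13, zinc finger factors, Prex1, an activator of the GTPase Rac, and Cmip and Gse1 had 17 each. Cebpb, which codes for a C/EBP factor of macrophages, Etv6, an ETS repressor, and Irf2 had 16 each, as did Tomm20, of the mitochondrial import receptor, which the limit of 12 genes left out at this tie. For these 12 genes, shared regions were 23.9 to 43.6% of the distal regions assigned to them, beside 19.6% over all genes. The genes were picked by their number of shared regions, which also enters this share, so a high share follows in part from the choice. Long genes and genes with large empty surroundings collect more regions, so the counts describe loci rather than genes.

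A minority of shared distal regions lay in clusters of 4 or more. Clusters were not counted for other distal regions or for gene-end regions, so no share stands beside these values. Joining neighbours within 10 kb gave 539 clusters of 4 or more, with 2739 of the shared distal regions (18.1%), while 6618 (43.7%) stood alone. The number of clusters was 290 with a join of 5 kb, 1044 with 25 kb, and 200 in lists of equal length. On a sequence with no place on a chromosome, chrUn_JH584304, 25 regions lay within 48.1 kb, and 3 shared distal regions in all had tag counts over 10 times the list median in every list, 1 of them there. At Ier5, an immediate early gene, 13 lay between chr1:155049041 and chr1:155098242. A further 13 lay around Plekho2 and Ankdd1a. Clusters of 12 lay at Lrrfip1, at Tgm2 and D630003M21Rik, and at B4galt5, and also at Bbc3 and Ccdc9, at Zswim4 and Nanos3, and near Tomm20; the last 3 tie with the others in size.

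Regions of a cluster differed widely in strength within the same list. In the Ier5 cluster, chr1:155059617-155059843 had 82.2 tags in KC-N, 45.8 in KN-RM, 482 in Ly6CHi-RM, 318 in Ly6CLo-RM, 437 in Blood-Ly6CHi-NASH and 58.1 in KC-H. Its neighbour chr1:155070546-155070996 had 23.6 tags in KC-N, 19.6 in KN-RM, 45.3 in Ly6CHi-RM, 49.6 in Ly6CLo-RM, 57.2 in Blood-Ly6CHi-NASH and 14.4 in KC-H. At Cebpb, chr2:167760093-167760308, 69.8 kb from the gene, ranked between 88.4 and 96.9 points in all 6 lists, and chr2:167751650-167751892 of the same cluster, 61.3 kb from the gene, between 6.06 and 31.6.

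Nearly all genes of the core myeloid list had a shared distal region. Of 35 core myeloid genes 32 had at least 1, with a median of 4 per gene and 158 in all, beside 27.8% and a median of 0 for all protein-coding genes. Only 59.4% of all protein-coding genes had a distal region of any list. Shared regions were 28.6% of the distal regions of core myeloid genes. That share was 19.6% over all genes and 24.7% for housekeeping genes, a smaller contrast than that of the gene counts. Lcp1, the leukocyte actin-bundling protein plastin, and Zeb2, a transcription factor of myeloid cells, had 11 each, Runx1, a transcription factor of blood development, had 10, and Lyn, a Src family kinase, had 9. Spi1 had 4, and Csf1r, the receptor of the macrophage growth factor CSF1, had 5. Cd68, Fcer1g and Lyz2 had none. The lists were chosen with results of these data known, and their counts are descriptions.

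At Fos, a subunit of AP-1, 11 shared distal regions were found, and the strongest ranked high in every list. The region chr12:85455272-85455551, 18.5 kb from the gene, had 148 tags in KC-N, 96.5 in KN-RM, 421 in Ly6CHi-RM, 436 in Ly6CLo-RM, 454 in Blood-Ly6CHi-NASH and 127 in KC-H, and ranked between 93.3 and 98.7 points. All 17 genes of the early response list, which holds AP-1, EGR and related factors, had a shared distal region, with 92 in all and a median of 5. For the 16 genes of the NF-kB list, 15 had one, led by Tnfaip3, an inhibitor of NF-kB, with 8, and Nfkb1 with 7. Every one of 13 leukocyte cytoskeleton and adhesion genes had one, led by Elmo1, a Rac activator of engulfment, with 10. Lysosomal genes had one in 13 of 16 cases, led by Psap and Tfeb with 7 each, and interferon response genes in 6 of 13, led by Irf1 with 9. Over all protein-coding genes, 27.8% had one. As a share of the distal regions assigned to each list, shared regions were 28.4% for early response genes and 26.5% for NF-kB genes. The share was 23% for cytoskeleton and adhesion, 28% for lysosomal and 25% for interferon response genes, beside 19.6% over all genes.

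Lists of genes that mark particular cell states were also counted. Of 20 Kupffer cell identity genes 12 had a shared distal region, 25 in all, which were 13.2% of their distal regions. Over all protein-coding genes, 27.8% had one, and shared regions were 19.6% of the assigned distal regions. Of 14 genes of Trem2-type lipid-associated macrophages 11 had one, 38 in all (22% of their distal regions). Of 12 monocyte and recruited cell genes 9 had one, 24 in all (22.2%) and led by the nuclear receptor gene Nr4a1 with 9. Timd4, which codes for Tim4, and Clec4f, a Kupffer cell lectin, had none: Timd4 had 1 peak in KC-N and 1 in Ly6CLo-RM, against 17 in KC-H, with 0 in the other 3 lists. Clec4f had 7 peaks in KC-N, 5 in KN-RM, 1 in Ly6CHi-RM, 0 in Ly6CLo-RM, 1 in Blood-Ly6CHi-NASH and 18 in KC-H. The near absence of Timd4 peaks in KC-N stands beside its Tim4-positive label. Adgre1, which codes for F4/80, Itgam, which codes for CD11b, Csf1r and Spi1 had peaks in all 6 lists.

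Marker lists of other cell types were counted in the same way. A shared distal region was assigned to 1 of 10 hepatocyte genes, 1 of 10 B cell genes, 2 of 10 T and NK cell genes, 2 of 10 stellate cell genes, 3 of 10 neutrophil genes and 4 of 10 liver endothelial genes. Dendritic cell genes, several of which macrophages also express, had one in 7 of 10 cases, and housekeeping genes in 5 of 15. Over all protein-coding genes the share was 27.8%. The neutrophil (30%), housekeeping (33.3%), liver endothelial (40%) and dendritic cell (70%) lists lay above it. Alb, the albumin gene of hepatocytes, had 1 peak in KC-N, 11 in Blood-Ly6CHi-NASH, 1 in KC-H and 0 in the other 3 lists, and no region there was shared.

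Shared distal regions differed in rank from list to list. With 1 list per group, the part of measurement noise in these differences was not tested. Across the 6 lists, the rank of a shared distal region spanned a median of 32.7 points, against 22.9 points for shared gene-end regions. It spanned at most 10 points for 621 (4.1%), against 2065 of the gene-end regions (20.1%). In all 6 lists, 179 (1.18%) ranked in the top 10%, against 1105 gene-end regions (10.7%). Ranks near either end of the scale have less room to differ, and gene-end regions rank higher. With a mean rank of 80 to 100 points the median span was 12.3 against 8.47 points, and with 40 to 60 points it was 39.9 against 35.1 points.

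Some shared distal regions were near the top of every list, and 947 (6.25%) were in the bottom 25% of all 6 lists, against 331 gene-end regions (3.22%). The regions named next were chosen for the highest lowest rank over the 6 lists. After 3 with very high tag counts, the leading region lay inside Add3, which codes for a subunit of the membrane skeleton protein adducin, at chr19:53142432-53142752. It had 227 tags in KC-N, 131 in KN-RM, 920 in Ly6CHi-RM, 838 in Ly6CLo-RM, 936 in Blood-Ly6CHi-NASH and 244 in KC-H, and ranked at least 99.6 points in all 6 lists. The region inside Uggt2, a sensor of glycoprotein folding, at chr14:119007473-119007688 ranked as high, 25.6 kb from a gene end and with no annotated start. Edem1, which acts in the disposal of misfolded glycoproteins, held chr6:108828353-108828627 with 222 tags in KC-N, 112 in KN-RM, 926 in Ly6CHi-RM, 821 in Ly6CLo-RM, 1083 in Blood-Ly6CHi-NASH and 236 in KC-H. The others lay at Pcmtd1, Trim45, Iffo2, Tead4, Zfp446, near the lncRNA 1700096K18Rik, and on chrUn_JH584304, with lowest ranks of 98.4 to 99.3.

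The site with the highest tag count in every list but Blood-Ly6CHi-NASH lay far from genes. At chr2:98667079-98667320, 1036 kb from the nearest protein-coding gene, the tag count was 7499 in KC-N, 10578 in KN-RM, 8161 in Ly6CHi-RM, 8876 in Ly6CLo-RM, 1415 in Blood-Ly6CHi-NASH and 6062 in KC-H. Whether repeated sequence shapes this count was not tested.

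At shared distal regions, tag counts were most alike among the F4/80-high lists and among the CD11b-high and blood lists. Spearman's correlation of tag counts over the 15156 shared distal regions was 0.82 between KC-N and KN-RM, 0.79 between KC-N and KC-H, 0.84 between Ly6CHi-RM and Blood-Ly6CHi-NASH and 0.83 between Ly6CHi-RM and Ly6CLo-RM, and as low as 0.47 between KN-RM and Blood-Ly6CHi-NASH. The weakest pair within these sets of lists was Ly6CLo-RM and Blood-Ly6CHi-NASH at 0.68. The strongest pair across them, KN-RM and Ly6CHi-RM, was close to it at 0.63. At shared gene-end regions the range was 0.77 to 0.95 and the sets overlapped. There Ly6CLo-RM had 0.88 with KC-H and 0.87 with Blood-Ly6CHi-NASH. These correlations run over regions of the same 6 lists and describe them only.

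Small sets of shared distal regions ranked higher on either side. Peaks at markers of other cell types also differed between these lists: Stab2, of liver endothelial cells, had 13 in KC-N, 19 in KC-H and 7 in KN-RM, against 1 in each of the others, and Flt3, of dendritic cells, had 1 in each F4/80-high list, against 11, 11 and 12 in Ly6CHi-RM, Ly6CLo-RM and Blood-Ly6CHi-NASH. Zbtb46, also of dendritic cells, did not split in this way: KC-H and Ly6CHi-RM had 7 peaks each. For Ly6CLo-RM the number was 11, for Blood-Ly6CHi-NASH 9, for KC-N 5 and for KN-RM 4. Zbtb46 also had 4 shared distal regions. The part of peaks at such markers in the counts of regions below was not tested. In 419 (2.76%, interval 2.52 to 3.04%) the lowest rank of the 3 F4/80-high lists was at least 25 points above the highest of the 3 other lists. Over all 25441 shared regions the share was 1.87%, and at shared gene-end regions it was 0.564%. In 234 (1.54%, interval 1.36 to 1.75%) the CD11b-high and blood lists were higher by the same rule, beside 1.21% over all shared regions and 0.71% at gene-end regions. Leaving out KN-RM, the shortest list, gave 573 and 357 regions, and in lists of equal length there were 206 and 123. Inside genes lay 57% of the 419 and 53% of the 234, beside 56.8% of all shared distal regions.

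**Figure D3:**
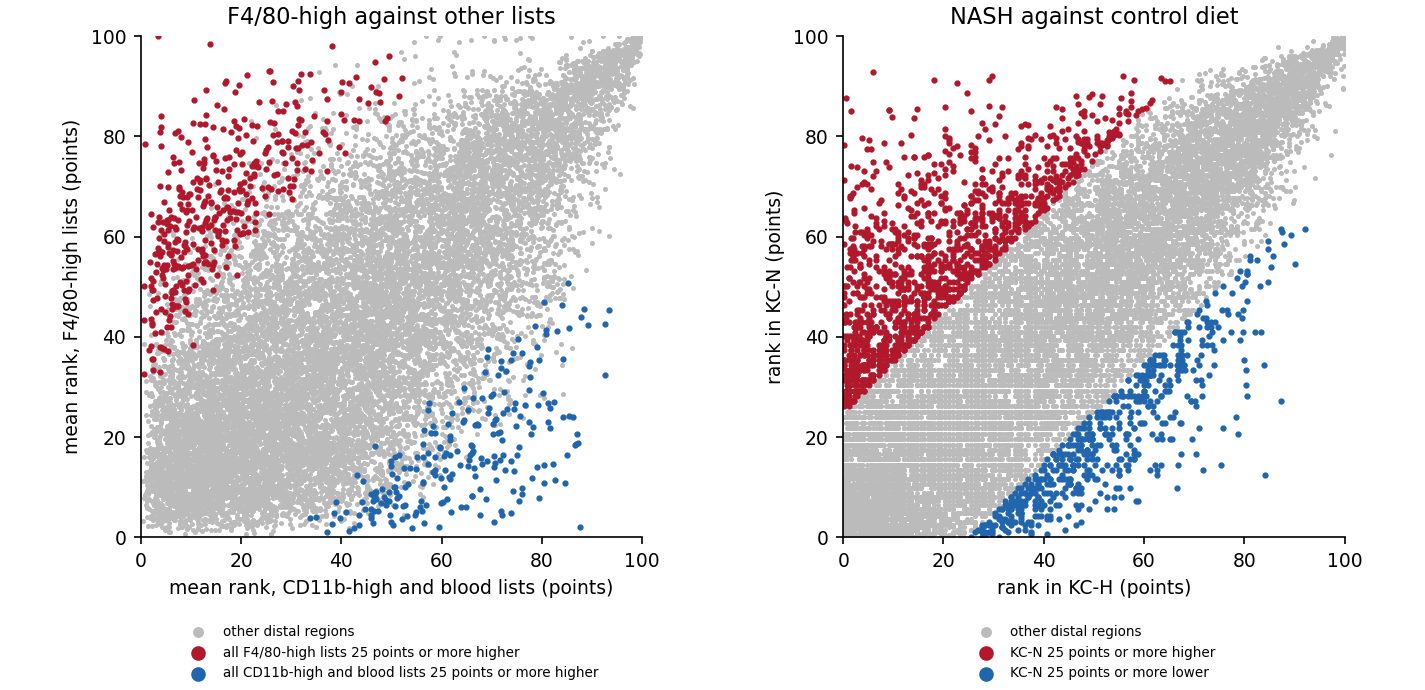
Left, each shared distal region by its mean rank in the 3 F4/80-high lists against its mean rank in the CD11b-high and blood lists, in points from 0 to 100; 419 regions are marked as higher in all F4/80-high lists and 234 as higher in all others. Right, rank in KC-N against rank in KC-H, with 1274 regions at least 25 points higher in KC-N and 580 at least 25 points lower.

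Towards the F4/80-high lists, the largest gap lay far from any gene and the next at Abca1, which codes for the transporter that exports cellular cholesterol. The region chr17:93046370-93046601, 152 kb from the nearest gene end, had 409 tags in KC-N, 530 in KC-H and 375 in KN-RM, against 26 in Ly6CHi-RM, 25.1 in Ly6CLo-RM and 29.1 in Blood-Ly6CHi-NASH. Its ranks were 100 points in each F4/80-high list and at most 4.25 in the others. The median tag count of all peaks was 26.9 in KC-N, 17.5 in KC-H and 19.6 in KN-RM. It was 46.4 in Ly6CHi-RM, 44.1 in Ly6CLo-RM and 50 in Blood-Ly6CHi-NASH. The rule for very high tag counts had to be met in every list, so it did not set this region apart. Whether repeated sequence shapes the counts of this region was not tested. Inside Abca1, chr4:53150602-53150844 had 81.2 tags in KC-N, 69.5 in KC-H and 47.3 in KN-RM, against 29.2 in Ly6CHi-RM, 25.7 in Ly6CLo-RM and 28.6 in Blood-Ly6CHi-NASH. Its ranks were 81.9 to 86.1 points in the F4/80-high lists and 3.27 to 4.73 in the others. A further Abca1 region, chr4:53126855-53127082, ranked 76.2 to 81.2 points in the F4/80-high lists and 3.77 to 4.25 in the others.

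Neighbouring sites at Abca1 differed from each other. Of its 15 shared distal regions, 3 met the rule for the F4/80-high lists, and none met it in the other direction. The third, chr4:53155458-53155827, ranked 86.5 to 90.7 points in the F4/80-high lists and 25.8 to 42.4 in the others. In contrast, chr4:53158699-53158926, 1.18 kb from the gene end, ranked 86.9 to 90 points in the F4/80-high lists and 90.3 to 93.7 in the others, and chr4:53148923-53149161 ranked 16 to 28.3 and 13.1 to 19.6. Between the Abca1 regions at 9.27 kb and 10.1 kb from the gene end, less than 1 kb apart, the Ly6CHi-RM rank was 3.27 and 68.8 points.

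**Figure D4:**
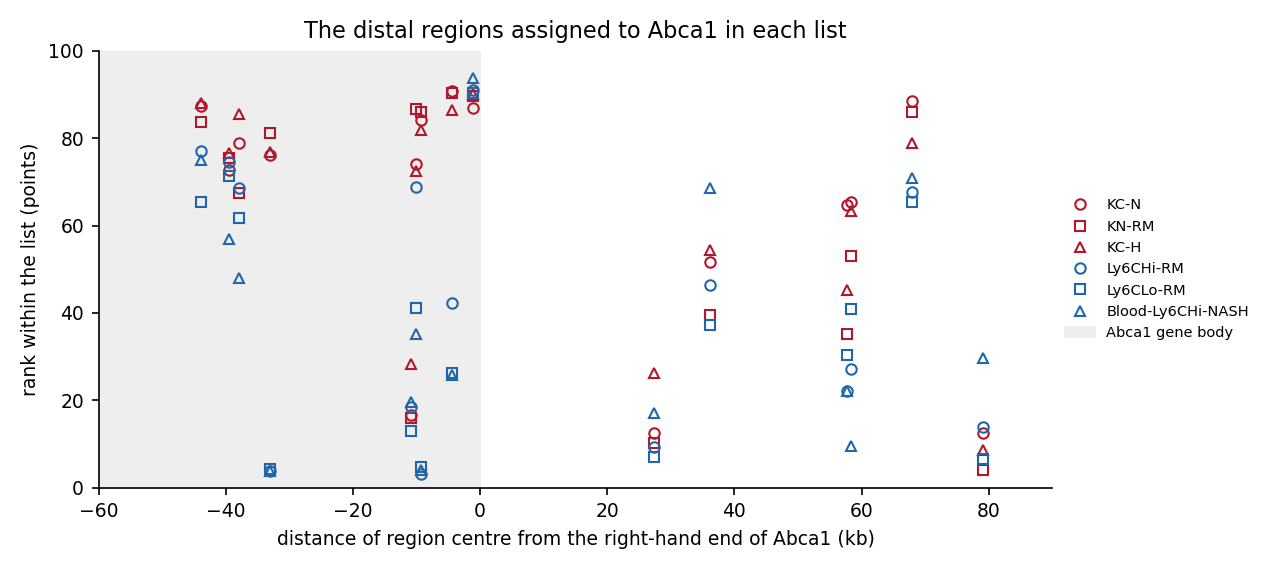
Rank within each of the 6 lists (points) of the 15 shared distal regions assigned to Abca1, by distance of the region centre in kb from the right-hand end of the gene, with the gene body shaded; red symbols are the F4/80-high lists and blue symbols the CD11b-high and blood lists. The regions 33 kb and 9.27 kb inside that end separate the colours most, and the region 1.18 kb inside it does not separate them.

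Other regions of this kind lay inside Mtmr7, a phosphoinositide phosphatase, Lix1, Ahrr, the repressor of the aryl hydrocarbon receptor, and Ttll9, of the tubulin tyrosine ligase family, and outside Ptpn5, a tyrosine phosphatase. At Mtmr7, chr8:40610305-40610526 ranked 76.8 to 80.1 points in the F4/80-high lists and 0.0491 to 2.08 in the others. Its 17.7 tags in Ly6CHi-RM and 18.4 in Ly6CLo-RM were at or near the lowest of any shared distal region there, 17.2 and 18.4. At Ahrr, chr13:74245585-74245815 ranked 74.4 to 87.6 points in the F4/80-high lists and 1.13 to 8.16 in the others. Man2a1, a mannosidase of the Golgi, had 4 of its 7 shared distal regions in this set and Frmd4b 3 of 10, the most of any gene beside Abca1; both were chosen after their values were seen.

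Of the gene lists, LXR and lipid handling held 5 of the 39 shared distal regions in this set: those at Abca1, 1 of the 4 at Scd2, a fatty acid desaturase, and the single one at Mertk, the receptor for apoptotic cells. Kupffer cell identity genes held 4 of 25, at Id1, Id3, Cd38 and Cd5l. The monocyte and recruited cell list held 1 of 24, at Ly6c2, which codes for a Ly6C antigen: chr15:75086733-75087030 ranked 94 to 99.9 points in the F4/80-high lists and 13.6 to 61.5 in the others, and none of the 24 met the reverse rule. At Id1, a helix-loop-helix inhibitor, chr2:152735086-152735316 had 89.9 tags in KC-N, 78.4 in KC-H and 49.2 in KN-RM, against 90.1 in Ly6CHi-RM, 71.6 in Ly6CLo-RM and 45.1 in Blood-Ly6CHi-NASH. Tag counts are not on 1 scale between lists, and its ranks were 85.8 to 87.5 points in the F4/80-high lists and 12 to 40.2 in the others. In neither list did a region meet the rule for the CD11b-high and blood lists. Over all genes, 382 of 14373 assigned regions were in this set.

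Towards the CD11b-high and blood lists, the widest gap lay 1.13 kb from an end of Rab36, a small GTPase. Its region chr10:75055771-75055993 had 14.9 tags in KC-N, 12.3 in KC-H and 11.5 in KN-RM, against 416 in Ly6CHi-RM, 166 in Ly6CLo-RM and 483 in Blood-Ly6CHi-NASH. Its ranks were 0.702 to 3.41 points in the F4/80-high lists and 75.1 to 94.5 in the others. At Cd33, a sialic acid-binding receptor of myeloid cells, chr7:43538629-43538856 ranked 0.623 to 8.61 points in the F4/80-high lists and 66.5 to 76.3 in the others. Its 11.2 tags in KN-RM were the lowest of any shared distal region there. The others lay at Ubac2, Foxk1, a forkhead factor, 1700025G04Rik, Abcb9, a peptide transporter of lysosomes, and Rap1gap2, and at the lncRNA Gm30657 shown above.

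No gene had more than 2 regions in this set. Among those with 2, chosen after their values were seen, were Ccnd1, which codes for cyclin D1, and Ifng, which codes for interferon gamma. At Ccnd1, chr7:144981770-144982029 ranked 1.08 to 6.22 points in the F4/80-high lists and 50 to 57.6 in the others. Near Ifng, a gene of T and NK cells, the regions lay 70.4 and 34 kb away; the nearer, chr10:118406913-118407139, ranked 3.08 to 21.7 points in the F4/80-high lists and 65.2 to 81.7 in the others.

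Set against KC-H, the only list of the control diet, KC-N was more often higher than lower at shared distal regions. KC-N ranked at least 25 points higher at 1274 shared distal regions (8.41%, interval 7.97 to 8.86%), beside 5.62% of all shared regions and 1.53% of gene-end regions. It ranked at least 25 points lower at 580 (3.83%, interval 3.53 to 4.14%), beside 4.42% of all shared regions and 5.29% of gene-end regions. The balance depended on what was ranked together: with distal regions ranked alone, the counts were 1324 higher and 1174 lower. Each diet has 1 list here, so these counts have no replicate check. In the higher set the median rank was 56.4 points in KC-N and 16.9 in KC-H, with 47.3 in KN-RM, 43.5 in Ly6CHi-RM, 44.3 in Ly6CLo-RM and 35.8 in Blood-Ly6CHi-NASH. In the lower set it was 18.5 points in KC-N and 51.7 in KC-H, with 32.1 in KN-RM, 36.1 in Ly6CHi-RM, 30.9 in Ly6CLo-RM and 38.6 in Blood-Ly6CHi-NASH.

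The regions that ranked highest in KC-N relative to KC-H lay inside Mcph1, Bcr, Anxa5, Igfbp7, Glipr1 and Sntb2 and near Prss56. At Anxa5, which codes for a phosphatidylserine-binding annexin, chr3:36467683-36467941 had 83.2 tags in KC-N and 10.5 in KC-H, ranks of 85.1 and 1.59 points. Its rank was 76.8 in KN-RM, 59.6 in Ly6CHi-RM, 66 in Ly6CLo-RM and 1.47 in Blood-Ly6CHi-NASH, so the blood list and KC-H were both low at this site. At Bcr, chr10:75170545-75170789 was also low in the blood list and KC-H, with 92.9 points in KC-N, 91.5 in KN-RM, 58.2 in Ly6CHi-RM, 63.7 in Ly6CLo-RM, 9.97 in Blood-Ly6CHi-NASH and 6.05 in KC-H. At Mcph1, chr8:18619163-18619398 ranked 87.6 points in KC-N, 0.617 in KC-H and 79.1 in Blood-Ly6CHi-NASH.

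Sgms1, which codes for a sphingomyelin synthase, had 7 of its 14 shared distal regions in the higher set and 1 in the lower. Chst11, a sulfotransferase of chondroitin, had 5 of 6, and Iqgap1, a scaffold of the actin skeleton, 5 of 10; these 3 genes were chosen after their values were seen. At Sgms1, chr19:32179636-32179858 had 70.2 tags in KC-N and 17.2 in KC-H, ranks of 78.6 and 11.5 points. At Chst11, chr10:82974308-82974543 ranked 42 points in KC-N and 2.74 in KC-H, with 56 in KN-RM, 79.5 in Ly6CHi-RM, 82.1 in Ly6CLo-RM and 74 in Blood-Ly6CHi-NASH.

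Among the gene lists, Trem2-type lipid-associated genes held 8 of 38 regions in the higher set and 1 in the lower, beside 1183 and 543 of 14373 over all genes. The 8 lay at Cd9, a tetraspanin, with 3 of 7, at Lgals3, which codes for galectin-3, with 2 of 4, and at Atf3, Fabp5 and Gpnmb with 1 each. At Cd9, chr6:125433738-125434012 had 37.5 tags in KC-N and 8.3 in KC-H, ranks of 42.9 and 0.0629 points. The KC-H value was the lowest of any shared distal region in that list. At Lgals3, chr14:47361500-47361978 ranked 66.8 points in KC-N and 32.9 in KC-H, with 73.9 in KN-RM, 67 in Ly6CLo-RM, 35.6 in Ly6CHi-RM and 3.03 in Blood-Ly6CHi-NASH. At Atf3, a stress-induced transcription factor, chr1:191193653-191194069 ranked 77.1 points in KC-N and 20.3 in KC-H. Tlr4, the receptor for bacterial lipopolysaccharide, chosen after its values were seen, had 3 of its 4 shared distal regions in the higher set.

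The regions that ranked lowest in KC-N relative to KC-H lay near Zfp64, Nlrp1b and Neurl1b and inside Maml3, Btaf1, Ccdc85c and Unc13a. At Zfp64, a zinc finger factor, chr2:168980924-168981222 had 23.1 tags in KC-N, against 74.1 in KC-H; it ranked 12.5 points in KC-N, at most 14.7 in the 5 NASH lists and 84.1 in KC-H. At Maml3, a coactivator of Notch, chr3:51709146-51709470 ranked 14.5 points in KC-N, 75.3 in KC-H and 19.8 to 23.1 in the other 4 lists. At Nlrp1b, an inflammasome sensor, chr11:71251406-71251681 ranked 13.5 points in KC-N, against 71.8 in KC-H. It ranked 79.5 to 87 in the CD11b-high and blood lists and 0.623 in KN-RM, where its 11.2 tags were the lowest of any shared distal region. Klf6 and Cdk6, a kinase of the cell cycle, had the most regions in the lower set, 3 of 17 at Klf6 and 3 of 13 at Cdk6, beside 1 and 2 in the higher set; Cdk6 was chosen after its values were seen. Rbpj, the transcription factor of Notch signalling, was chosen after its values were seen. It had an alternative start at chr5:53590191-53590469 with 31.2 tags in KC-N and 66.4 in KC-H, ranks of 30.4 and 80.3 points. At its other shared distal regions, the KC-N rank minus the KC-H rank ranged from -19.1 to 21.2 points.

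**Figure D5:**
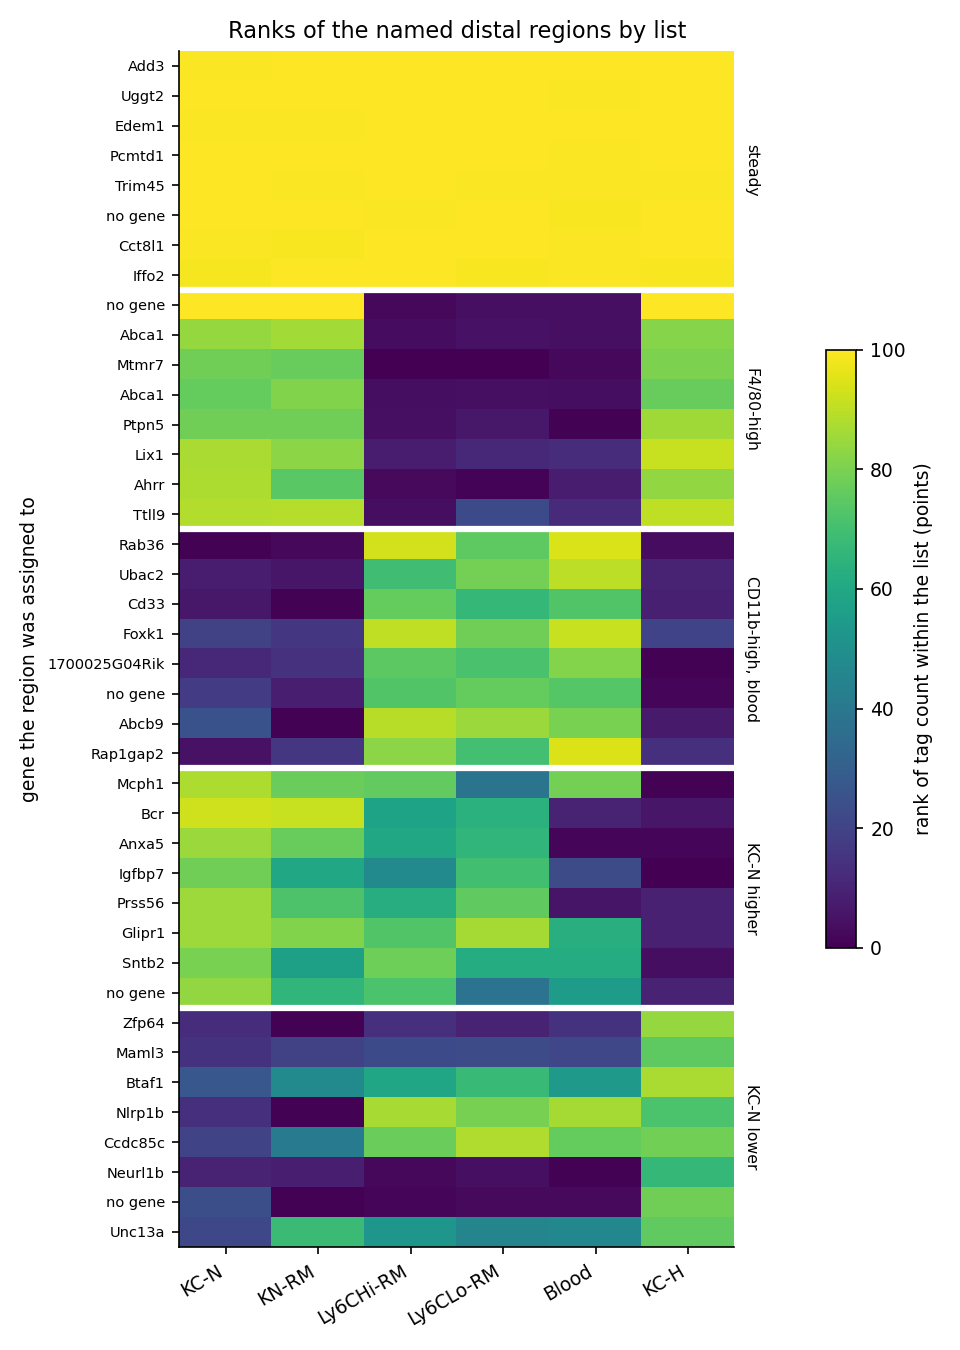
Rank of the tag count (colour, in points) in each of the 6 lists for 8 regions each of the shared distal regions with the highest lowest rank, those higher in the F4/80-high lists, those higher in the CD11b-high and blood lists, and those higher or lower in KC-N than in KC-H, named by the assigned gene. Each block was chosen for the pattern it shows; within the KC-N blocks, the other 4 lists, which the choice did not use, vary from region to region.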

How the data were processed

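ATAC-seq peaks of 12 libraries in 6 groups were used as 6 deposited peak lists, 1 for both libraries of a group. Each list gives positions, a normalized tag count, which is the signal of a peak, and a score, both made by the authors. Bowtie2, HOMER and DESeq2, and the builds mm10 and GRCm38, are named per the submitters' processing notes, with no versions or roles. Depth per library and the method of normalization are not given in these sources, so lists were compared by rank; tag counts of several lists are printed side by side as deposited, not as a comparison of level.

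Peaks overlapping by at least 1 bp were merged, with the strongest peak giving a region's tag count. Genes came from a RefSeq table (GRCm38.p6, 21887 protein-coding genes), with no strand or exons. Regions were assigned to the gene that holds the centre, or to the nearest within 100 kb. Ranks are percentiles within a list over the 25441 regions of all 6 lists; a difference was counted at 25 points or more, between the lowest rank of one set of lists and the highest of the other. Start windows run from 250 bases before to 50 after a RefSeq start; motifs were searched on both strands there only, since no genome sequence was used here. Named regions were the 10 with the highest lowest rank, with and without 3 of very high tag count (over 10 times the list median in every list), and the 8 with the widest gap in each direction. Named genes were the 12 with the most regions and the 6 largest clusters (ties at these limits are named), up to 4 a gene list and the markers; RNA genes were up to 10 by lowest rank, microRNA genes apart. Anything else is said to have been chosen later. The regions and gene lists were chosen with earlier results of these data known. Of the listed genes, 1 symbol (Mx1) was not matched. Alternatives were shorter lists, other distances, gaps and joins, and lists left out. The functions were tested on simulated lists. Work was done in Python 3.11.15 (matplotlib 3.10.9, numpy 2.4.6, scipy 1.17.1, pandas 2.3.3).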

Additional observations from a re-analysis of the deposited data

How the results depend on the processing

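Of 108 values under alternative settings, 57 stayed close to the reported value and 51 moved; none reversed. No paired analysis was possible because each list holds both libraries of a group, so no library has a value of its own. In lists of equal length there were 9704 shared distal regions, 52.6% of shared regions were distal and 57.7% of them lay inside genes. The ratios of distal to gene-end median tag counts were then 0.744 in KC-N, 0.752 in KN-RM, 0.648 in Ly6CHi-RM, 0.581 in Ly6CLo-RM, 0.605 in Blood-Ly6CHi-NASH and 0.654 in KC-H. With equal lengths, 206 regions ranked higher in the F4/80-high lists and 123 in the others, 1175 differed between KC-N and KC-H (812 higher and 363 lower in KC-N), and there were 200 clusters. With the better-scored 50% of every list, 6257 regions remained and 58.8% of them lay inside genes. Of the shared regions 47.1% were then distal, against 59.6% as reported, so distal regions were no longer the majority. With a limit of 500 bp the distal share was 66.1% and the share inside genes 58.5%. The ratios were 0.67, 0.662, 0.518, 0.474, 0.486 and 0.559 in the same order of lists. With 2500 bp they were 50.6% and 54.6%, and 0.772, 0.743, 0.621, 0.571, 0.585 and 0.653. Using genes of every type gave 54.1% and 58.7%. Leaving out 1 list gave 15280 to 19450 regions, the most without KN-RM. A gap of 15 points gave 858 regions higher in the F4/80-high lists, 638 higher in the others and 4679 that differed between KC-N and KC-H (2810 higher, 1869 lower); a gap of 40 points gave 129, 42 and 450 (368 and 82). Ranking distal regions alone gave 1174 lower in KC-N, against 580 as reported. Joining within 5 kb gave 290 clusters and within 25 kb 1044, against 539. Among alternatives chosen after seeing the data, leaving out regions over start windows put 54.7% inside genes, and leaving out KN-RM gave 357 regions higher in the CD11b-high and blood lists. The cause of these shifts was not tested beyond what each setting removes. With no library values, depth limits could not be given.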
